A study of Mus musculus with 7 samples.

Results

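The MHC class I presentation genes described here are 10 genes of the antigen presentation pathway, chosen by name: H2-K1, H2-D1, B2m, Tap1, Tap2, Tapbp, Psmb8, Psmb9, Erap1 and Nlrc5. All 10 were found among the 48795 genes of the deposited table, and all 10 passed the filter on low values, so none was lost. Their transcripts were compared between memory B cells (MBCs, 3 libraries) and plasma cells (PCs, 4 libraries), which can both arise from the germinal center (GC) reaction. Whether the sorted cells came from GCs was not tested. The cells were splenic and came from female C57BL/6 mice of the wild type, 8 to 12 weeks old and analysed 10 days after intravenous injection of sheep red blood cells, which provoke a T cell-dependent GC response. No transgene, deletion or further treatment separated the groups, and no unimmunized mice or other B cell stage were included. MBCs were sorted as B220+, CD138-negative, IgD-negative, CD38+ CD273+ cells, and PCs as B220-low, CD138+, IgD-negative cells, in both cases after magnetic enrichment with CD43 beads. Whether a library holds 1 mouse or pooled mice is not given in the sources used here, so the p-values measure the spread between these libraries, which may be technical.

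MHC class I molecules display peptides from inside the cell to CD8+ T cells. Each is a polymorphic heavy chain, in C57BL/6 mice H2-Kb and H2-Db from the genes H2-K1 and H2-D1, held by the invariant light chain β2-microglobulin from B2m. Peptides are cut by the proteasome, whose catalytic subunits can be exchanged for the immunoproteasome subunits encoded by Psmb8 and Psmb9. They are pumped into the endoplasmic reticulum by the transporter TAP, trimmed there by the aminopeptidase encoded by Erap1, and loaded onto the heavy chain with the help of tapasin from Tapbp, calreticulin and the thiol oxidoreductase ERp57. Nlrc5 encodes the transactivator of class I genes, the counterpart of Ciita, which drives class II genes. PCs are known for an enlarged endoplasmic reticulum devoted to antibody secretion and for low class II expression.

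The values are transcript abundances (TPM), in which the reads of a gene are divided by its length and by the sum of the library. Immunoglobulin genes took 49.4 to 55.9% of the TPM of PC libraries and 1.65 to 3.16% of that of MBC libraries, while mitochondrial genes took 8.10 to 9.80% in PCs and 19.7 to 33.5% in MBCs. For this reason each library was divided by a median-ratio factor, and levels below are given as scaled TPM unless stated otherwise. This factor shifts every fold change, and for each of the 10 genes the value with TPM as deposited is given too. TPM keeps no read totals, so no counting intervals are given. The genes listed above 0 TPM numbered 11527 to 18061 in MBCs and 14463 to 16768 in PCs.

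The sort labels held for PCs, in which Sdc1 (CD138) was at 36.6 to 49.6 deposited TPM against at most 0.12 in MBCs, and all 5 PC marker genes were called higher than in MBCs. Among the MBC libraries replicate 3 stood apart. Its deposited TPM of Cd38, a sort marker, was 13.9 where the other MBC libraries had 237 and 276 and the PC libraries 8.04 to 13.6. Pdcd1lg2 (CD273) stood at 5.32 TPM in it against 78.9 and 36.3, and the summed level of 4 GC B cell markers at 1126 TPM against 364 and 346. Its log2 profile correlated less with MBC replicates 1 and 2 (r = 0.69 and 0.68 across genes) than with the PC libraries (r from 0.70 to 0.78). MBC replicates 1 and 2 correlated no better with each other (r = 0.675). They had the fewest genes above 0 TPM of all libraries, 12983 and 11527, and mitochondrial shares of 33.2 and 33.5%. MBC replicate 3 had the most genes, 18061, and a mitochondrial share of 19.7%. Fits without MBC replicate 3 thus rest on the MBC libraries with the fewest genes, and the part of this in the correlations was not tested. The counts and main fold changes below are given with and without the library labelled MBC replicate 3. In MBC replicate 2 the β-globin gene Hbb-bs was at 2609 deposited TPM against 0.26 to 38.1 in the other libraries. T cell markers were low and moved with the groups, since the 6 markers summed to 9.31 to 28.6 TPM in PCs, to 2.22 TPM in MBC replicate 3 and to 0 in the other MBC libraries. Cd8a, a defining marker, was at 0 in all libraries but PC replicate 4, where it was at 0.36 TPM. The 4 NK cell markers likewise summed to 1.21 to 14.4 TPM in PCs, with Nkg7 at 14.2 in PC replicate 3, and to at most 0.04 TPM in MBCs. T cells and NK cells also express class I genes, and the part of these markers' cells in the results below was not tested.

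To see whether class I genes as a group differ between MBCs and PCs, the members were read in a limma fit over all 11573 genes tested. B2m and H2-K1, the light chain and one heavy chain, were higher in PCs, and none of the 10 was lower. At an unadjusted p under 0.05 the same fit had 5 members higher and 0 lower, beside 1770 and 1033 of all 11573 tested genes. The 2 calls among 10 members stand beside 6.41% of all tested genes called higher and 2.14% called lower at an adjusted p under 0.05. The median log2 fold change (PC minus MBC) was 0.93 over the members and 0.14 over all tested genes. It depends on the scaling, since after quantile normalization it was 0.0081 over the members and -0.15 over all genes, and with TPM as deposited -0.38 and -0.91. In 4 members (B2m, H2-K1, H2-D1 and Psmb9) every PC library lay above every MBC library, which held for 13.0% of all tested genes. Without MBC replicate 3 the calls were 4 of 10 (B2m, H2-K1, Psmb9 and Erap1), beside 13.8% of all genes. The median log2 fold change was then 0.66 over the members and 0.19 over all tested genes. With TPM as deposited or after quantile normalization no member was called higher, beside 4.1% and 5.44% of all tested genes. Psmb8 was called lower in PCs with TPM as deposited, where 26.1% of all tested genes were called lower. In bulk RNA a change in the number of expressing cells and a change of RNA per cell cannot be told apart.

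**Figure D1:**
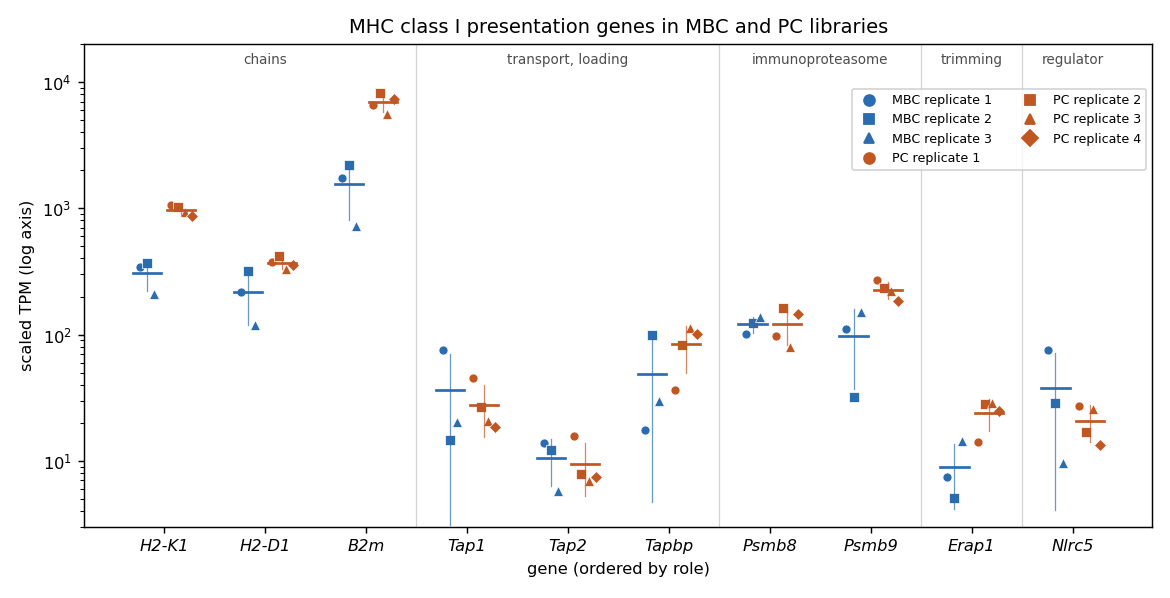
Scaled TPM of each of the 10 genes on a log axis, one point per library (blue MBC, orange PC, symbol by replicate), with the mean as a horizontal bar and the SD as a vertical line (3 MBC and 4 PC libraries). The PC points of H2-K1, H2-D1, B2m and Psmb9 lie above all MBC points, MBC replicate 3 is the lowest library for the 3 chains, and MBC replicate 1 the highest for Tap1 and Nlrc5.

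The chains of the class I molecule itself come first. B2m (ENSMUSG00000060802; chromosome 2, 122147686 to 122153083, plus strand, GRCm38, as all gene positions here from GENCODE) encodes the light chain. Scaled TPM, in the order of the replicate numbers here and for the genes that follow, was 1743, 2197 and 724 in MBCs and 6616, 8188, 5589 and 7312 in PCs. The lowest PC library was thus above the highest MBC library, and MBC replicate 3 was the lowest of all. MBCs averaged 1554 ± 754 (SD, n = 3) and PCs 6926 ± 1099 (SD, n = 4). The log2 fold change was 2.29 (SE 0.45, limma adjusted p = 0.0129), or 4.88-fold. Without MBC replicate 3 it was 1.81 (limma adjusted p = 0.0129). The groups did not overlap in TPM as deposited either, at 1485 to 3260 in MBCs and 4206 to 5509 in PCs, but there the log2 fold change of 0.96 did not pass (limma adjusted p = 0.101). After quantile normalization it was 0.16 (limma adjusted p = 0.861).

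H2-K1 (ENSMUSG00000061232; chromosome 17, 33996017 to 34000347, minus strand) encodes the heavy chain H2-Kb. Scaled TPM was 341, 369 and 209 in the MBC libraries and 1070, 1022, 930.5 and 876 in the PC libraries. Every PC library was above all MBC libraries, and the PC libraries lay close together. The MBC mean was 306 ± 85.2 (SD, n = 3), and that of PCs was 974 ± 87.5 (SD, n = 4). The log2 fold change was 1.70 (SE 0.32, limma adjusted p = 0.00909), or 3.26-fold, and 1.45 without MBC replicate 3 (limma adjusted p = 0.00902). With TPM as deposited the MBC libraries reached 621 and the lowest PC library stood at 628, and the log2 fold change of 0.38 did not pass (limma adjusted p = 0.345). It was 0.35 after quantile normalization (limma adjusted p = 0.567).

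H2-D1 (ENSMUSG00000073411; chromosome 17, 35262730 to 35267499, plus strand) encodes the heavy chain H2-Db. Its scaled TPM was 217, 321 and 119.5 in MBCs and 375, 417, 329 and 354 in PCs. The PC libraries were again all above the MBC libraries, though MBC replicate 2 came within reach of the lowest PC library. The log2 fold change of 0.85 (SE 0.37) did not pass the test (limma adjusted p = 0.191), and without MBC replicate 3 it was 0.48 (limma adjusted p = 0.272). Its direction depends on the scaling, at -0.47 with TPM as deposited and -0.14 after quantile normalization. In TPM as deposited the groups overlapped, with 245 to 476 in MBCs and 239 to 280 in PCs.

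Because these genes are taken to be controlled through short promoter boxes, windows from 250 bases before to 50 bases after the RefSeq start (GRCm38.p6) were searched on both strands; they were found for 8 of the 10 members, not for Tap2 and Nlrc5. The letters searched were GAAANN followed by GAAA for the interferon-stimulated response element (ISRE), GGGNNTTCC for the NF-κB site, ATTGG for the Y box, TGACGNNA for the X2 box and TTCNNNGAA for the gamma-activated site. Among all 32851 promoter windows of that length, 3.44% held the ISRE letters, 5.82% the NF-κB, 37.4% the Y box, 6.61% the X2 box and 8.30% the gamma-activated site letters. They occurred in 2, 2, 6, 2 and 1 of the 8 member windows, respectively. The windows of Tap1 and Psmb9 overlap, and both the Y box and the X2 box counts hold a shared stretch counted for each gene. A match describes letters and not a bound site.

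The promoters of the light chain and the heavy chains are shown because these genes had the highest mean scaled TPM in PCs among the members and include both that were called. In B2m the ISRE letters began 139 bases and the Y box letters 53 bases before the start. In the heavy chain genes the NF-κB letters GGGGATTCC preceded ATTGG by 95 bases in both, and from the first to the last base shown for each gene 108 of 121 bases (89.3%) were identical. The stretches below run 5′ to 3′ on the gene's strand, with the matching letters in capitals. The GENCODE model of H2-D1 starts upstream of its RefSeq start, so its stretches lie inside that gene model.
B2m, chr2:122147538-122147686, plus strand, ISRE and Y box: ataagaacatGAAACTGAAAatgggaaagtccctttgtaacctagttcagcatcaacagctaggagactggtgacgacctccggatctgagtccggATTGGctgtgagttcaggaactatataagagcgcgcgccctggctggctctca
H2-K1, chr17:34000439-34000468, minus strand, NF-κB: gcccagggctGGGGATTCCccatctccaca
H2-D1, chr17:35262913-35262942, plus strand, NF-κB: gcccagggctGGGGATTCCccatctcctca
H2-K1, chr17:34000348-34000377, minus strand, Y box: cagctcttacccccATTGGgtggcgcgatc
H2-D1, chr17:35263004-35263033, plus strand, Y box: caggtctcactatcATTGGgtggcgagatt

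Heavy chain genes share sequence with their neighbours, which bears on how reads are divided among them. Of the 50-base words in GENCODE transcripts, 9.63% of those of H2-K1 and 12.8% of those of H2-D1 occurred in another gene, while none of B2m did. The like shares were 34.97% for H2-Q6 and 26.5% for H2-Q7, so values of these nonclassical genes are uncertain.

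The transporter and tapasin showed no call. Tap1 (ENSMUSG00000037321; chromosome 17, 34187553 to 34197225, plus strand) and Tap2 (ENSMUSG00000024339; chromosome 17, 34203527 to 34216321, plus strand) encode the subunits of TAP. Tap1 was at 75.1, 14.5 and 20.1 scaled TPM in MBCs and at 45.5, 26.6, 20.5 and 18.4 in PCs. Replicate 1 was the highest library of each group, and the groups overlapped. Its log2 fold change was -0.11 (SE 0.58, limma adjusted p = 0.931), and it was 0.58 without MBC replicate 1 (limma adjusted p = 0.485). It was -0.35 without MBC replicate 3 (limma adjusted p = 0.749) and -1.39 with TPM as deposited (limma adjusted p = 0.111).

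Tap2 was lower, at 13.8, 12.2 and 5.71 scaled TPM in MBCs and at 15.8, 7.79, 6.86 and 7.49 in PCs. Here too PC replicate 1 was the highest PC library, and the groups overlapped. Its log2 fold change was -0.14 (SE 0.50, limma adjusted p = 0.896), and -1.34 with TPM as deposited (limma adjusted p = 0.0640). Tap2 shares 11.6% of its 50-base words with other annotated genes on its locus, against 3.33% for Tap1.

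Tapbp (ENSMUSG00000024308; chromosome 17, 33915899 to 33929292, plus strand) encodes tapasin, which bridges TAP and the empty heavy chain. It ranged from 17.5 in MBC replicate 1 through 29.9 in replicate 3 to 99.8 scaled TPM in replicate 2, and PC libraries stood at 36.2, 83.1, 114 and 101. The spread within MBCs was as wide as that over all PCs, and the log2 fold change of 1.01 (SE 0.61) did not pass (limma adjusted p = 0.350). It was 0.48 without MBC replicate 1 (limma adjusted p = 0.662) and 1.70 without MBC replicate 2 (limma adjusted p = 0.0950). Without MBC replicate 3 it was 0.85 (limma adjusted p = 0.440). With TPM as deposited its sign turned, to -0.29. Of the 50-base words of Tapbp 23.2% occur in other genes, mostly in Gm19412, an overlapping gene on the other strand, and whether counting used strand is not given in the sources used here.

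The immunoproteasome genes lie beside the TAP genes. Psmb8 (ENSMUSG00000024338; chromosome 17, 34197721 to 34201454, plus strand) encodes the β5i subunit. It had 101, 124 and 137 scaled TPM in MBCs and 98.0, 162, 79.9 and 145 in PCs. PC libraries lay on either side of the MBC range, and the log2 fold change was -0.04 (SE 0.34, limma adjusted p = 0.963). Without MBC replicate 3 it was 0.06 (limma adjusted p = 0.927). With TPM as deposited, where the median gene moved to -0.91, Psmb8 fell by 1.35 on the log2 scale in PCs (limma adjusted p = 0.0180). In that fit 26.1% of all tested genes were called lower. Of its 50-base words 11.9% occur in other genes, most of them in the overlapping Gm20496.

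Psmb9 (ENSMUSG00000096727; chromosome 17, 34181987 to 34187764, minus strand) encodes the β1i subunit. It was at 109.7, 31.9 and 152 scaled TPM in MBCs and at 269, 233, 222 and 183 in PCs. All PC libraries were above the MBC libraries, of which replicate 2 was far below the others. With a log2 fold change of 1.46 (SE 0.50) it did not pass with all libraries (limma adjusted p = 0.110), and it passed without MBC replicate 3, at 1.90 (limma adjusted p = 0.0264). Without MBC replicate 2 it was 0.80 (limma adjusted p = 0.204), and with TPM as deposited 0.14 (limma adjusted p = 0.875). Psmb9 and Tap1 start 226 bases apart on opposite strands, so their windows share 275 bases. The X2 box letters of both are the same stretch read from either strand, and so are their Y box letters. The X2 stretch is shown as read on the Tap1 strand, with the X2 letters in capitals.
Tap1, chr17:34187459-34187488, plus strand, X2 box: ccagagacaggTGACGACAgagggtcctgc
Of these neighbours Tap1 was highest in MBC replicate 1 and Psmb9 in PC replicate 1.

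Erap1 (ENSMUSG00000021583; chromosome 13, 74639568 to 74693201, plus strand) encodes the aminopeptidase that trims peptides to class I length. Its scaled TPM was 7.47, 5.05 and 14.2 in MBCs and 14.1, 28.1, 28.8 and 24.7 in PCs. Only MBC replicate 3 and PC replicate 1 met, at nearly the same level. The log2 fold change was 1.39 (SE 0.47, limma adjusted p = 0.110) with all libraries and 1.75 (limma adjusted p = 0.0265) without MBC replicate 3, but 0.16 with TPM as deposited (limma adjusted p = 0.852). Its transcripts share 10.7% of their 50-base words with Cast, which overlaps it on the other strand.

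Nlrc5 (ENSMUSG00000074151; chromosome 8, 94434356 to 94527272, plus strand) encodes the class I transactivator. It had 74.8, 28.6 and 9.52 scaled TPM in MBCs and 27.1, 16.9, 25.7 and 13.3 in PCs. MBC replicates 1 and 2 lay above the PC range and MBC replicate 3 below it. The log2 fold change was -0.45 (SE 0.63, limma adjusted p = 0.706), -1.18 without MBC replicate 3 (limma adjusted p = 0.128) and 0.25 without MBC replicate 1 (limma adjusted p = 0.807). It was -1.72 with TPM as deposited (limma adjusted p = 0.0662). The genes whose pattern over the 7 libraries was most like that of Nlrc5, by the root mean square difference of centred log2 values, were Ighd (0.17), Mbd5 (0.20), Gm43682 (0.21), Gbp5 (0.22) and 4930594C11Rik (0.25). Ighd encodes the heavy chain constant region of IgD, and Gbp5 a guanylate-binding protein induced by interferon. Ighd was at 85.8, 39.9 and 9.55 scaled TPM in MBCs, in cells sorted as IgD-negative, and at 14.2 to 38.8 in PCs. Among the members Tap2 came next, at rank 440, and Tap1 at rank 602, while B2m was at rank 8542.

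**Figure D2:**
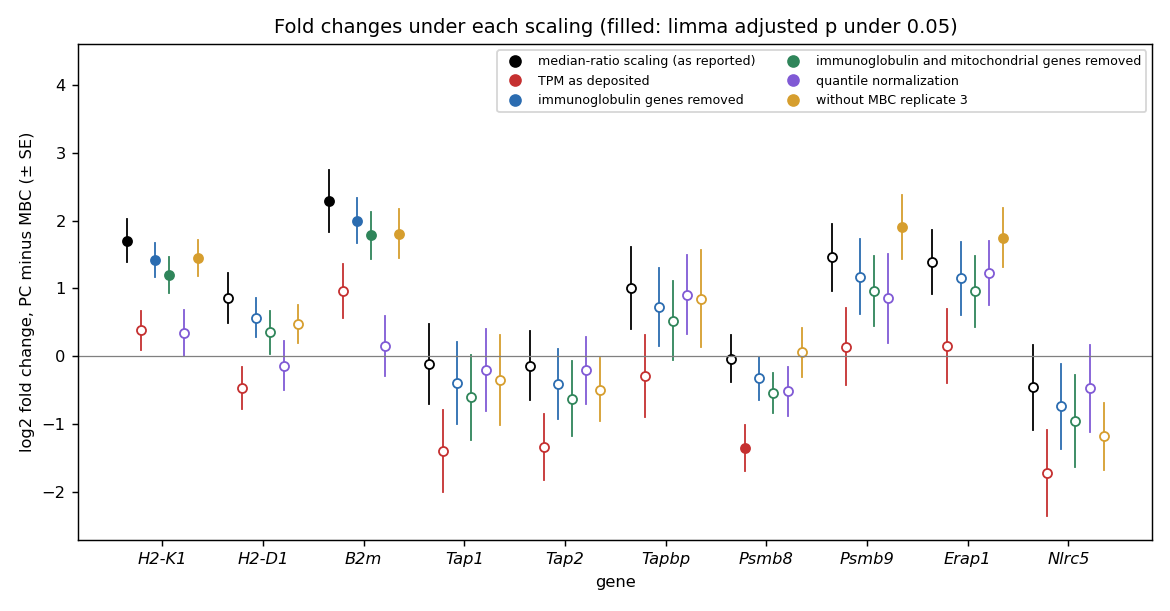
Log2 fold change (PC minus MBC) of each gene with its SE as a vertical line, under the reported median-ratio scaling, 4 other scalings and without MBC replicate 3; filled points have a limma adjusted p under 0.05. B2m and H2-K1 are filled under 3 of the 5 scalings, and H2-D1 lies at 0.85 under the reported scaling and at -0.47 with TPM as deposited.

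Ratios of gene pairs within a library do not depend on the factor between libraries. Of 9 ratios, 6 did not overlap between groups, each with an exact two-sided permutation p of 0.0286, the smallest that 3 against 4 libraries allow, and 0.0429 after Benjamini-Hochberg adjustment over the 9. These p-values treat the 7 libraries as unpaired. Of the 4 codes in the sample titles 3 occur in both groups, and no ratio was tested within codes. With a library left out, no ratio could reach a p below 0.0667. The same 6 ratios did not overlap without MBC replicate 3. They are not separate results, because H2-K1 over H2-D1 follows from the ratios of these heavy chains to B2m. How often other gene pairs do not overlap was not examined. Of single tested genes 13.0% lay higher and 8.68% lower in PCs without overlap in scaled TPM.

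The balance among the chains differed. The ratio of H2-D1 to B2m was 0.125, 0.146 and 0.165 in MBCs and 0.0567, 0.0509, 0.0588 and 0.0485 in PCs, a difference of -1.43 on the log2 scale. H2-K1 over B2m was 0.195, 0.168 and 0.289 in MBCs and 0.162, 0.125, 0.166 and 0.120 in PCs. That difference was -0.58 on the log2 scale, the gap between groups was narrow, and without MBC replicate 3 the difference was -0.36 (exact permutation p = 0.133). H2-K1 over H2-D1 was 1.57, 1.15 and 1.75 in MBCs against 2.85, 2.45, 2.83 and 2.47 in PCs, a log2 difference of 0.85. In PCs transcripts of the light chain thus stood higher relative to the heavy chains, and those of H2-K1 relative to H2-D1, than in any MBC library.

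For the proteasome, each immunosubunit gene was set over that of the constitutive subunit it replaces. Psmb8 over Psmb5 was 2.81, 3.47 and 1.89 in MBCs and 1.19, 1.65, 1.72 and 1.83 in PCs, a log2 difference of -0.74 with MBC replicate 3 just above the PC range. The ratio Psmb9 over Psmb6 was 740.1, 0.604 and 2.61 in MBCs and 2.09 to 6.67 in PCs; the first value comes from Psmb6 at 0.15 scaled TPM in MBC replicate 1. The groups overlapped (log2 difference -1.54, exact permutation p = 0.743), and the difference turned to 1.53 without MBC replicate 1. Psmb10 over Psmb7 overlapped as well (log2 difference -0.14, exact permutation p = 0.8), and Tap1 over Tap2 differed by 0.04 on the log2 scale (exact permutation p = 0.914).

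Of the ratios of class I to class II genes, both were higher in PCs. B2m over Cd74, the class II invariant chain, was 0.317, 0.279 and 0.164 in MBCs and 1.77, 1.89, 1.21 and 1.45 in PCs, a log2 difference of 2.68. Nlrc5 over Ciita was 1.49, 0.304 and 0.320 in MBCs and 11.6, 8.66, 15.5 and 5.46 in PCs, a log2 difference of 4.19; Nlrc5 itself was not called and Ciita was lower in PCs. Per length, Ciita was thus above Nlrc5 in 2 of 3 MBC libraries and in none of the PC libraries.

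**Figure D3:**
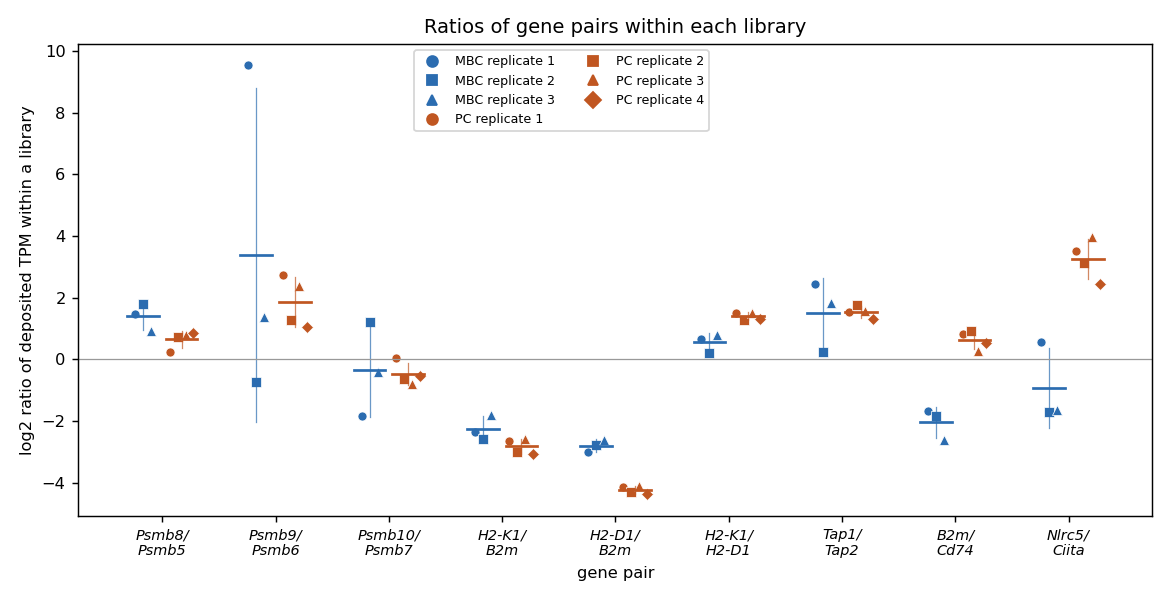
Log2 ratio of the deposited TPM of 9 gene pairs within each library (blue MBC, orange PC, symbol by replicate), with the mean as a horizontal bar and the SD as a vertical line. The groups do not overlap for 6 pairs, with the widest difference for Nlrc5 over Ciita (4.19), and the MBC point above 9 for Psmb9 over Psmb6 is replicate 1.

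The partners that fold and load class I chains in the endoplasmic reticulum were examined next. All of them except Tapbpl also serve other glycoproteins or transport and are not particular to class I. Of 7 genes 4 rose in PCs (Calr, Pdia3, Ganab and Canx), 3 did not pass and none fell. Of all tested genes 6.41% were called higher and 2.14% lower. The median log2 fold change was 1.62 beside 0.14 over all genes. Calr, which encodes calreticulin, went from 52.1, 48.2 and 96.4 scaled TPM in MBCs to 593, 647, 678 and 595 in PCs. Its log2 fold change was 3.31 (SE 0.33, limma adjusted p = 2.4e-04), and it passed under all scalings, at 2.00 with TPM as deposited and 2.70 after quantile normalization. Pdia3, which encodes ERp57, stood at 61.4 to 96.9 in MBCs and 400.3 to 455 in PCs (log2 fold change 2.34, SE 0.29). It passed under all scalings too. Ganab, the catalytic subunit of glucosidase II, rose from 13.6 to 32.5 in MBCs to 59.6 to 77.5 in PCs (log2 fold change 1.70, limma adjusted p = 0.0212), and this call was lost when any PC library was left out (limma adjusted p from 0.0599 to 0.0895), with TPM as deposited (0.477), and after removal of immunoglobulin genes (0.0603). Canx, which encodes the membrane chaperone calnexin, had a log2 fold change of 1.62 (limma adjusted p = 0.0347), and of the fits that left out a library it was called only in the one without MBC replicate 3. Nor was it called under any of the 4 other scalings. Without MBC replicate 3 the same 4 genes were called higher, beside 13.8% of all tested genes.

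Genes of peptide supply gave no call in either direction among 15 tested (proteasome subunits, activators and cytosolic peptidases), with a median log2 fold change of 0.18. At an unadjusted limma p under 0.05 there were 1 higher and 1 lower, beside 1770 and 1033 of all 11573 tested genes. The largest fold changes were those of Lap3, a leucine aminopeptidase (2.61, limma adjusted p = 0.0962), and of Psmb6 (2.03, limma adjusted p = 0.341), which was 0.16 without MBC replicate 1. Lap3 passed without MBC replicate 3, at 3.69 (limma adjusted p = 0.00612). With TPM as deposited 6 of the 15 were called lower in PCs, beside 26.1% of all tested genes.

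Of 21 other class I and class I-like chain genes 11 could be tested, and none passed in either direction. At an unadjusted limma p under 0.05 they had 2 higher and 0 lower, beside 1770 and 1033 of all 11573 tested genes. H2-Q7, a Qa-2 gene, was at 83.7, 80.0 and 15.6 scaled TPM in MBCs and at 159, 158, 147 and 135 in PCs (log2 fold change 1.63, limma adjusted p = 0.103; with TPM as deposited 0.33). The groups did not overlap, and without MBC replicate 3 the log2 fold change was 0.86 (limma adjusted p = 0.0475). H2-Q6, which shares sequence with H2-Q7, had a log2 fold change of -0.15 with overlapping groups. The summed scaled TPM of H2-Q6 and H2-Q7 overlapped too, at 36.8 to 187 in MBCs and 176 to 238 in PCs. How shared reads were divided between them was not tested. H2-T22, a ligand of γδ T cells, was at 2.49 to 8.94 in MBCs and 12.6 to 23.9 in PCs (log2 fold change 1.25, limma adjusted p = 0.179).

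Regulators of class I and interferon signalling were called in both directions. Of 22 genes 1 rose, 3 fell and 18 did not pass, with a median log2 fold change of -0.26. The calls were 4.55% higher and 13.6% lower, beside 6.41% and 2.14% of all tested genes. Ifnar2, a subunit of the type I interferon receptor, rose from 1.47, 16.1 and 5.86 scaled TPM in MBCs to 48.1, 48.5, 66.5 and 48.4 in PCs (log2 fold change 3.01, SE 0.60, limma adjusted p = 0.0136). Ifngr1, the ligand-binding subunit of the interferon-γ receptor, was at 47.3, 64.7 and 26.9 in MBCs and at 5.38, 12.1, 4.12 and 9.84 in PCs (log2 fold change -2.43, SE 0.50, limma adjusted p = 0.0152). Jak1, the kinase shared by both receptors, was at 101, 126 and 67.6 in MBCs and 28.6 to 31.2 in PCs (log2 fold change -1.64, limma adjusted p = 0.0148).

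Irf8, an interferon regulatory factor prominent in B cells, was at 131, 132 and 60.8 in MBCs and 21.6 to 32.8 in PCs (log2 fold change -1.91, limma adjusted p = 0.0145). The calls of Irf8 and Jak1 were lost without PC replicate 2 (limma adjusted p = 0.0570 and 0.0602), that of Irf8 also without PC replicate 3 and that of Jak1 without PC replicate 4 (limma adjusted p = 0.0508 and 0.0510), and that of Ifnar2 without PC replicate 3 and with TPM as deposited (limma adjusted p = 0.0519 and 0.0511). Irf1, an activator of class I genes, was at 49.4 in MBC replicate 1 and at 4.84 to 13.2 in the other libraries. Without MBC replicate 3 the counts for the 22 genes were 2 higher and 5 lower, beside 13.8% and 7.97% of all tested genes. With the replicate number as a block the counts were 1 higher and 0 lower, beside 3.37% and 0.518%. With the code in the sample titles as a block they were also 1 and 0, beside 3.75% and 0.717%. The call of Ifnar2 was lost too when all genes above 0 were tested (limma adjusted p = 0.0538).

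Class II genes were lower in PCs or did not pass. Of 10 genes 5 fell in PCs (Ciita, H2-Oa, H2-Ob, H2-DMb1 and H2-DMb2), none rose and 5 did not pass, with a median log2 fold change of -1.69. Of all tested genes 2.14% were called lower and 6.41% higher. In 8 of the 10 all PC libraries lay under all MBC libraries, beside 8.68% of all tested genes. Ciita went from 50.1, 94.0 and 29.7 scaled TPM in MBCs to 2.34, 1.95, 1.66 and 2.44 in PCs (log2 fold change -4.10, SE 0.50, limma adjusted p = 7.8e-04). H2-Oa, a subunit of the peptide-exchange modulator H2-O, was at 85.2 to 174 in MBCs and 2.97 to 13.0 in PCs (log2 fold change -4.00). Its partner H2-Ob had a log2 fold change of -2.49. Cd74 was at 4419 to 7873 scaled TPM in MBCs and 3743 to 5041 in PCs and did not pass (log2 fold change -0.39, limma adjusted p = 0.582). Without MBC replicate 3 the list had 7 genes lower, beside 7.97% of all tested genes, and with TPM as deposited all 10, beside 26.1%.

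**Figure D4:**
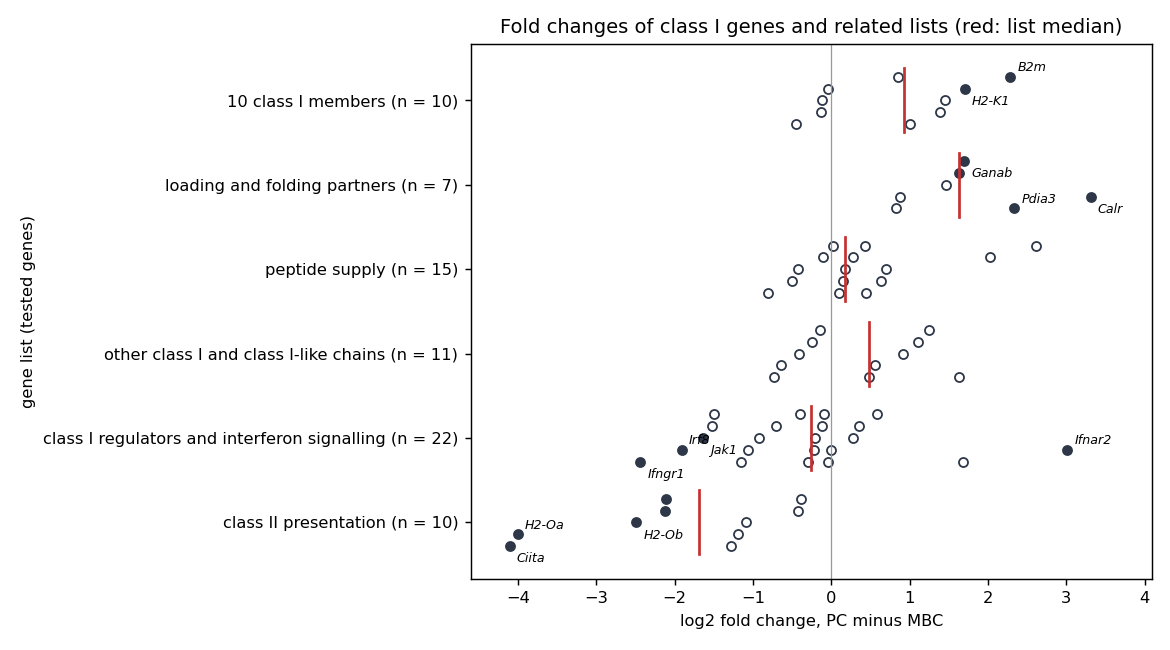
Log2 fold change (PC minus MBC) of each tested gene in the 10 class I members and 5 related lists; filled points have a limma adjusted p under 0.05, and red bars are list medians. The medians run from 1.62 for the loading and folding partners through 0.93 for the members to -1.69 for class II genes.

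As shares of the library, the 10 members took 0.492, 0.475 and 0.291% of the deposited TPM in MBCs and 0.545, 0.685, 0.597 and 0.648% in PCs, while immunoglobulin transcripts filled about as much of a PC library as all other genes together. B2m alone made up 0.148 to 0.326% in MBCs and 0.421 to 0.551% in PCs. The heavy chains H2-K1 and H2-D1 together took 0.0675 to 0.102% in MBCs and 0.0882 to 0.102% in PCs, and these ranges overlapped. The 10 class II genes took 1.94 to 2.10% in MBCs and 0.348 to 0.571% in PCs.

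Of the 4 title codes in the labels 3 occur in both an MBC and a PC library, and the main fit treats all libraries as independent. The codes begin with 1 of 2 prefixes, and the meaning of codes and prefixes is not given. Among the 5 libraries with the more frequent prefix (MBC replicates 1 and 2, PC replicates 1 to 3), the log2 fold change was 1.78 for B2m (limma adjusted p = 0.0346) and 1.5 for H2-K1 (limma adjusted p = 0.0264). The other prefix holds only MBC replicate 3 and PC replicate 4, with 724 and 7312 scaled TPM of B2m and 209 and 876 of H2-K1, and allows no test.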

How the data were processed

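Bulk libraries of sorted MBCs (n = 3) and PCs (n = 4) were made with the Nugen cDNA kit for the Illumina HiSeq. The authors deposited TPM for 48795 Ensembl genes. The submitters' processing notes name STAR 2.5.2a, RSEM 1.3.0, DESeq2 1.18.1 and GRCm38, without saying which step each served. Symbols came from GENCODE M21, promoter sequences from RefSeq (GRCm38.p6). Groups and replicate numbers follow the sample descriptions.

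TPM was divided by each library's median ratio to the geometric mean over 9305 genes above 0 in all libraries (scaled TPM; factors 0.636 to 0.813 in PCs and 1.48 to 2.05 in MBCs). The 11573 genes that reached 1 deposited TPM in at least 3 libraries entered limma 3.58.1 (R 4.3.3; lmFit, eBayes with trend) as log2(scaled TPM + 1), without covariates, with Benjamini-Hochberg adjustment over all of them. The added 1 shrinks fold changes of low genes. Calls are at an adjusted p under 0.05. Ratios used deposited TPM and exact two-sided permutation over 35 assignments.

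On simulated data for this comparison (11573 genes), 84% of 100 genes changed by 4 on the log2 scale and 27% of 100 changed by 2 were recovered, with 6 of 11373 unchanged genes called. The simulated noise was independent between genes and had the same SD per gene in both groups. The real MBC libraries correlated with each other at 0.675 to 0.687 and the PC libraries at 0.850 to 0.957. The simulation thus cannot give the rate of false calls in the real libraries. TPM holds no read totals, so depth enters no error here. No 2 libraries were copies, since at least 99.3% of genes above 0 differed in any pair.

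The members, lists and tests were chosen with earlier results of these data known. Genes outside the members were named by rule: up to 3 in each direction with the largest fold change among the calls of a list, 2 by value where a list had none, and the 5 nearest to Nlrc5. The ratios were set by gene. Canx, H2-DMb1, H2-DMb2, Cd74, Hbb-bs, Irf1 and H2-Q6 were named after their values were seen. Alternatives covered scaling, pseudocount, filter, trend, blocks, prefix and each library left out.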

Additional observations from a re-analysis of the deposited data

Results flagged for a closer look

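Among 38 results examined, a library of the PC group lay far from the other 3 in 3 results, judged by Dixon's ratio of the gap to the range at its 95% critical value for 4 libraries, which chance alone passes about 1 time in 20. Tap2 was at 15.8 scaled TPM in PC replicate 1 and at 6.86 to 7.79 in the others. H2-T22 was at 23.9 scaled TPM in PC replicate 2 and at 12.6 to 14.5 in the others. Ifnar2 was at 66.5 scaled TPM in PC replicate 3 and at 48.1 to 48.5 in the others.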

How the results depend on the processing

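The scaling set which members were called. With TPM as deposited, which moved the median log2 fold change of all genes to -0.91, 0 members were higher and 1 lower (474 of all genes higher, 3026 lower), and H2-D1 (-0.47) and Tapbp (-0.29) turned sign. Quantile normalization gave 0 members higher (629 and 490 of all genes) and H2-D1 at -0.14. Removing immunoglobulin genes left 2 members higher (394 and 431 of all genes), as did removing mitochondrial genes as well (353 and 562). The share of calls that were higher was 75.0% as reported, 13.5% with TPM as deposited, 47.8 and 38.6% after these removals and 56.2% after quantile normalization. Testing all genes above 0 kept 1 member (442 and 124 of all genes), B2m being lost (adjusted p = 0.131). The more frequent title prefix alone gave 873 higher and 417 lower, and Ifnar2 was not called there. A pseudocount of 0.1 changed no call named here, and leaving out the trend lost Canx.

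With each library left out in turn, 2 to 4 members were higher, 451 to 1594 of all genes higher and 91 to 922 lower, the extremes coming without PC replicate 2 and without MBC replicate 3. For genes whose sign turned, the log2 fold change ran from -0.57 to 0.58 for Tap1, -0.49 to 0.081 for Tap2, -0.19 to 0.14 for Psmb8, -1.18 to 0.25 for Nlrc5, -1.22 to 0.30 for Ighd, -1.44 to 0.17 for Gm43682 and -1.13 to 0.57 for Gbp5. It was positive without MBC replicate 1 for all of these but Psmb8, for Tap2 also without MBC replicate 2, for Tap1 without PC replicate 4, and for Psmb8 without MBC replicate 3, PC replicate 1 or PC replicate 3. Of the ratios, 6 or 7 did not overlap. The cause was not tested.

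Whether libraries of the 2 groups are paired is not given in the labels. The correlations of deviations between same-numbered libraries were 0.11, -0.04 and -0.08, and so few libraries cannot settle it. With the number as a replicate block 1 member was higher (390 and 60 of all genes), H2-K1 being lost (adjusted p = 0.0604), and Tap1 was at 0.0485. Between libraries that share a title code the correlations were 0.11, -0.00436 and 0.22. Blocking on the title codes gave 1 member higher (434 and 83), B2m being lost (adjusted p = 0.0572). By code and by number, calls were also lost for Ganab (adjusted p = 0.0979 and 0.126), Ifngr1 (0.0516 and 0.05001), Irf8 (0.0743 and 0.0810) and Jak1 (0.0900 and 0.129), while Canx was lost in both and H2-DMb1 as well.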
